A study of Mus musculus with 9 samples.

Results

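URE-AML, a line of leukemic blasts, was compared with Hox-WT, a line of wild-type myeloid progenitors, over all genes of the count table. The comparison used 6 of the 9 RNA-seq libraries of the series, 3 per line, chosen by the line named in their labels. Of 54347 genes in the table, 13082 passed the filter on low counts and were tested. Hox-WT was derived from lineage-negative, c-Kit+ cells of wild-type bone marrow and immortalized with Hoxb8 fused to an estrogen receptor domain, which is active while estradiol is present. URE-AML, labelled B22, was grown in interleukin 3 from blasts of a leukemic mouse without the URE, the upstream regulatory element that enhances *Spi1*, from which the factor PU.1 is made. The methods of the study describe no Hoxb8 immortalization for URE-AML, while the design text of the series traces its blasts to a HoxURE mouse. The remaining line, Hox-URE, carries the same deletion and was immortalized as Hox-WT was. The study cites an earlier publication for Hox-WT and lists Hox-URE and URE-AML as established in-house. The 3 libraries of Hox-URE entered the fit and served, mostly for single genes, as a second reference. All lines were grown in the same medium with serum, interleukin 3, interleukin 6, stem cell factor and estradiol. Each group is 1 line, so the deletion, the leukemic state, the immortalization and the origin of the line differed together between URE-AML and Hox-WT and cannot be told apart. Whether separate cultures were used for the libraries of a line is not stated in the labels, so the p-values measure the spread between these libraries, which may be technical.

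PU.1 is an ETS family factor that activates genes of monocytes, granulocytes and B cells, often beside RUNX, C/EBP and IRF factors. Neutrophil precursors first make primary granules with myeloperoxidase and serine proteases, and later secondary granules with lactoferrin and antimicrobial peptides. In acute myeloid leukemia, blasts halt partway along such a path while they go on dividing, so genes of early and of late stages can be found in the same population. In bulk RNA, fewer cells of a type and less RNA per cell cannot be told apart.

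Library totals were 20331064 to 23907360 counts in URE-AML and 25857565 to 28588718 in Hox-WT. Levels are given as CPM, counts scaled to the library total by TMM, and a line whose libraries all held at most 3 counts of a gene is treated as being at the floor, with folds against it given as lower bounds. In the text, x against y CPM gives the mean of the URE-AML libraries and then that of the Hox-WT libraries, n = 3 each, and a signed number in parentheses after a gene is its log2 fold change, URE-AML minus Hox-WT. For the genes named here that were above the floor in both lines, the standard error of that value was 0.07 to 0.94, with a median of 0.186. The log2 CPM of libraries correlated across genes with r of 0.986 to 0.991 within these lines and 0.760 to 0.768 between them, which describes the libraries, since genes are not independent. A gene counted as called where its edgeR adjusted p was under 0.05 and its fold over 1.5, which held for 3011 genes higher in URE-AML (23.0%) and 2637 lower (20.2%). Percentages after the counts of a list are shares of its tested members and are to be read against these shares of all genes. The libraries of the lines did not overlap in 34.4% of genes higher and 33.2% lower in URE-AML. *Spi1* (ENSMUSG00000002111, chromosome 2, 91082390 to 91115756 of GRCm38), the gene whose enhancer is deleted, had 2.50, 5.51 and 6.35 CPM in URE-AML and 109.9, 101 and 96.5 CPM in Hox-WT (log2 fold change -4.42, SE 0.28, edgeR adjusted p = 4.53e-07). URE-AML thus had low but measurable *Spi1*, and its libraries lay below every Hox-WT library. *Hoxb8*, part of the immortalizing construct, had 0 counts in all 3 URE-AML libraries and 65.8 CPM on average in Hox-WT.

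The labelled cell types were checked against markers. Of 12 neutrophil markers 10 had higher calls and 1 a lower one, and their summed level was 11600 to 26200 CPM in URE-AML libraries and 5620 to 9050 CPM in Hox-WT libraries. Of 10 stem and progenitor markers 7 were tested, 1 was higher and 6 were lower, and the sums were 111 to 113 against 1970 to 2270 CPM. *Flt3* was at 0 counts in URE-AML, and *Mecom* and *Hoxa9* were at 0 counts in both lines. Markers of mast cells and basophils summed to 37.3 to 71.8 CPM in URE-AML and 497 to 822 CPM in Hox-WT, those of monocytes and macrophages to 282 to 654 and 440 to 493 CPM, and those of B cells to 0.242 to 0.558 and 37.0 to 47.9 CPM. Of 5 T and NK cell markers *Cd3e*, *Cd3g*, *Bcl11b* and *Ncr1* were at 0 counts in both lines, and *Lck* was lower in URE-AML (0.647 against 5.39 CPM, log2 fold change -3.04, or -3.76 without library 3 of URE-AML). Of 6 stromal, endothelial and epithelial markers *Col1a1*, *Col3a1*, *Pdgfra* and *Cdh5* were at 0 counts in both lines, *Epcam* was at the floor in URE-AML, and *Kdr* was higher there (3.47 against 0 CPM). Of 7 tested genes of the longer stromal and endothelial list 4 were higher and 1 lower, and the sums were 660 to 885 against 178 to 186 CPM, most of it *Pecam1*, which leukocytes also express. The part of other cell types in the differences below was not tested beyond these values. In Hox-WT the neutrophil sum came mostly from *Mpo*, and *Ly6g* was at 0 counts there. The summed progenitor markers were higher in Hox-WT than in URE-AML.

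**Figure D1:**
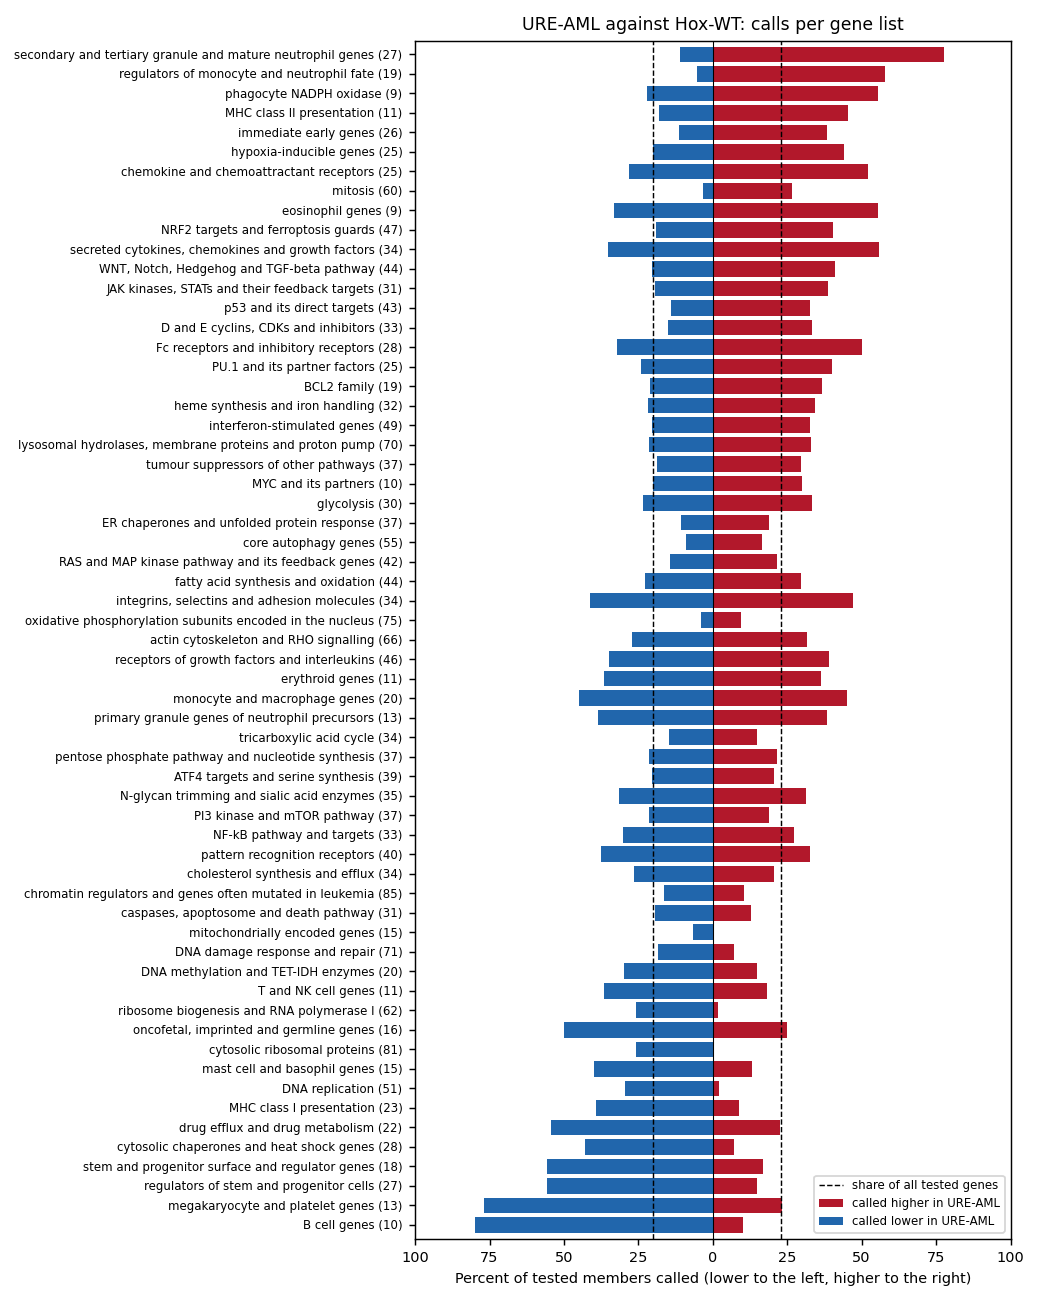
Percent of tested members of gene lists with at least 9 tested genes called higher (right) or lower (left) in URE-AML than in Hox-WT, with the number of tested members beside each name. Dashed lines mark the share of all tested genes, 23.0% higher and 20.2% lower. Secondary granule genes lie furthest to the right, B cell genes furthest to the left.

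Genes of late neutrophil stages were mostly higher in URE-AML. Of 27 tested genes of secondary and tertiary granules and mature neutrophils, 21 were called higher (77.8%) and 3 lower (11.1%), with a median log2 fold change of 4.66, against 0.00 over all tested genes. *S100a8*, a subunit of the calcium-binding protein calprotectin, had 2303, 2760 and 3307 CPM in URE-AML and 29.6, 37.02 and 48.6 CPM in Hox-WT (log2 fold change 6.18, SE 0.27, edgeR adjusted p = 3.56e-08). *Ngp*, which encodes neutrophilic granule protein, had 630, 1532 and 4040 CPM in URE-AML and 3.52, 5.86 and 15.8 CPM in Hox-WT (log2 fold change 7.94, SE 0.84, edgeR adjusted p = 2.09e-05). *Camp*, the gene of the antimicrobial peptide cathelicidin, had 472, 492 and 954 CPM in URE-AML and 0.0749, 0.643 and 1.21 CPM in Hox-WT (log2 fold change 9.92, SE 0.55, edgeR adjusted p = 1.85e-07). For each of these genes the lowest URE-AML library lay far above the highest Hox-WT library, although *Ngp* also varied widely among the URE-AML libraries. Its log2 fold change was 7.0 without library 3 of URE-AML and 8.77 without library 3 of Hox-WT, and that of *Camp* 10.7 without library 3 of Hox-WT. *Padi4*, the arginine deiminase that citrullinates histones in neutrophils, was at 174 against 0.154 CPM, and *Cd177*, a neutrophil surface protein, at 287 against 0.327 CPM. *Lcn2*, the siderophore-binding lipocalin, had a log2 fold change of 5.23, *Hp*, which encodes haptoglobin, of 5.90, and *S100a9*, the partner of *S100a8*, of 4.66. *Ltf*, the gene of lactoferrin and the classical secondary granule marker, was higher by 2.62 on the log2 scale but reached only 4.94 CPM, and its call ended without library 3 of URE-AML (1.34) or library 2 of Hox-WT (2.26). The genes that were lower were *Itgam*, the CD11b integrin chain (1.75 against 7.30 CPM), *Csf3r*, the receptor of G-CSF (11.99 against 27.4 CPM), and *Stfa1* (0.148 against 3.74 CPM), one of a cluster of near-identical stefin genes in which reads may be shared. *Stfa3* and *Cstdc5* of that cluster were higher, at 87.8 against 0 CPM and 944 against 1.48 CPM. *Mmp8* (0.34) and *Fcnb* (0.65) were not called. Of the genes at low levels, *Cd177* had a log2 fold change of 9.73, or 11.1 without library 3 of Hox-WT, *Cstdc5* 9.30, or 9.97 without the same library, *Itgam* -2.06, or -2.67 without library 3 of URE-AML, and *Stfa1* -4.64, with -4.03 and -5.71 without library 1 or 3 of URE-AML.

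Genes of primary granules were split. Of 13 tested, 5 were higher (38.5%) and 5 lower (38.5%), against 23.0% and 20.2% of all genes. *Elane* (ENSMUSG00000020125, chromosome 10, 79886247 to 79888215), which encodes neutrophil elastase, had 4288, 7124 and 10510 CPM in URE-AML and 112, 234 and 196 CPM in Hox-WT (log2 fold change 5.34, SE 0.39, edgeR adjusted p = 1.29e-06). It had the largest difference in mean CPM of all protein-coding genes called higher. *Mpo* (ENSMUSG00000009350, chromosome 11, 87793581 to 87804413), the gene of myeloperoxidase and the one with the largest difference among those lower, had 192, 212 and 174 CPM in URE-AML and 3291, 5947 and 5881 CPM in Hox-WT (log2 fold change -4.71, SE 0.49, edgeR adjusted p = 1.95e-05). *Ctsc*, which encodes the cathepsin that activates elastase and its relatives by trimming their proenzymes, had 0.606, 0.428 and 0.772 CPM in URE-AML and 142, 122 and 115 CPM in Hox-WT (log2 fold change -7.69, SE 0.23, edgeR adjusted p = 3.17e-09). The libraries of the lines did not overlap for any of the 3 genes. The serine proteases *Prtn3* (proteinase 3) and *Ctsg* (cathepsin G) were higher by 0.88 and 0.90 on the log2 scale, and *Lyz2*, which encodes lysozyme, by 1.84. The libraries of the lines overlapped for *Ctsg*. *Igsf6* (-5.26), *Ms4a3* (-1.16) and *Nkg7* (-1.15) were lower. Calls of 3 of these genes ended when 1 library was left out, and a higher member of the list not named here also lost its call. The list then had 3 genes higher without library 2 or 3 of URE-AML or library 1 or 2 of Hox-WT, and 3 lower without library 2 of URE-AML. *Ctsg* then had 0.60 to 0.93 (library 2 or 3 of URE-AML, library 1 or 2 of Hox-WT), *Ms4a3* -1.13 to -0.92 (library 2 of URE-AML, library 1 of Hox-WT) and *Nkg7* -1.25 to -0.76 (library 1 or 2 of URE-AML, library 2 or 3 of Hox-WT). In Hox-URE *Elane* was at 9.28 CPM and *Mpo* at 5.04 CPM, and both were higher in URE-AML than there (log2 fold changes 9.62 and 5.22, edgeR adjusted p = 8.7e-08 and 1.55e-05).

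**Figure D2:**
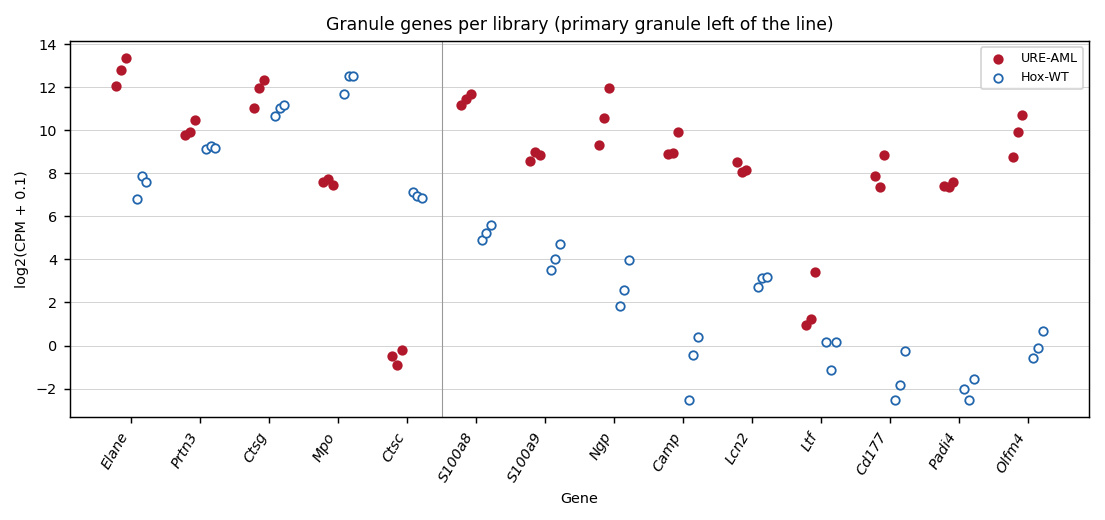
Level of granule genes in every library, as log2 of CPM plus 0.1, so that 0 CPM lies at -3.32. Filled points are URE-AML, open points Hox-WT. The 3 URE-AML points lie above the 3 Hox-WT points for *Elane* and the secondary granule genes and below them for *Mpo* and *Ctsc*.

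Among granule genes, some that were higher and some that were lower held the PU.1 motif GAGGAAGT in their promoters. A promoter here is the stretch from 250 bases before to 50 after a start site, taken from RefSeq on GRCm38.p6, and 9778 of the 13082 tested genes matched one by symbol. The stretches around the motif are shown for the genes of granule proteins described above, from the part before the start and on the strand of the gene, with the motif on either strand in capitals.
Elane: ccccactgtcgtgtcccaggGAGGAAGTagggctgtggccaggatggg
Prtn3: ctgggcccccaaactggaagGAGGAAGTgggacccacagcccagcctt
S100a8: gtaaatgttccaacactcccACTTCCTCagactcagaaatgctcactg
Mpo: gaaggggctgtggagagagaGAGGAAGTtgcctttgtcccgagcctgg
Ctsc: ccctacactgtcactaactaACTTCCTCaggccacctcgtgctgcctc
They lie at chr10:79886207-79886254, chr10:79879552-79879599, chr3:90668879-90668926, chr11:87793540-87793587 and chr7:88277914-88277961, all on the plus strand, and the motif begins 85, 95, 172, 224 and 151 bases before the start as RefSeq gives it. GENCODE M21, the source of the gene positions above, starts *Elane* and *Mpo* within the stretches shown, just after the motif. The first 3 genes were higher and the last pair lower in URE-AML. The motif was in 3.29% of 2799 promoters of genes called higher, 3.63% of 2643 promoters of genes called lower and 3.20% of all 32851 promoters. The RUNX motif TGTGGT was in 13.8% of promoters of higher and 14.2% of lower genes, against 12.9% of those of tested genes and 16.8% of all. The AP-1 motif TGANTCA was in 7.36% and 5.75%, against 5.24% and 7.81%. The IRF motif, a pair of GAAA with 2 bases between, was in 3.18% and 2.65%, against 3.0% and 3.44%, and the C/EBP motif TTGCGCAA in 0.143% and 0.378%, against 0.305% and 0.183%. Both strands were searched, motifs may overlap, and promoters of one gene can share sequence. These shares are descriptions, and a match does not show that a factor binds there.

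Transcription factors of myeloid fate were more often higher than lower. Of 25 tested genes of PU.1 and its partner factors 10 were higher (40%) and 6 lower (24%), against 23.0% and 20.2% of all genes. Of 19 tested regulators of monocyte and neutrophil fate, 11 were higher (57.9%) and 1 lower (5.26%). *Cebpe*, the C/EBP factor of secondary granule genes, had 229, 284 and 338 CPM in URE-AML and 61, 55.9 and 43.8 CPM in Hox-WT (log2 fold change 2.40, SE 0.18, edgeR adjusted p = 1.53e-06), with no overlap between the lines. *Cebpb*, a C/EBP factor of emergency granulopoiesis, was higher (2.31), while *Cebpa* (0.35) and *Gfi1* (0.28), a repressor that favors neutrophil over monocyte fate, were not called. *Rxra*, a nuclear receptor, rose from 8.34 to 105 CPM. *Id2*, an inhibitor of E proteins, was higher by 4.43 on the log2 scale, *Klf6* by 3.27 and *Bhlhe40* by 2.82. *Ets1* was at 28.2 against 0.503 CPM and *Irf4*, an IRF factor of lymphoid and macrophage cells, at 7.55 CPM, at least 70.1-fold higher than in Hox-WT. Other factors were lower: *Irf5*, an IRF factor of inflammatory macrophages (at least 87.8-fold lower), *Gata2*, a regulator of stem and mast cells (-3.59), and *Elf1*, an ETS factor (-1.33). *Ets1* was also at 29.6 CPM in Hox-URE (URE-AML against Hox-URE, log2 fold change -0.07, edgeR adjusted p = 0.876), whereas *Cebpe* was at 6.23 CPM there.

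Stem and progenitor genes were more often lower than higher. Of 27 tested regulators of stem and progenitor cells, 15 were lower (55.6%) and 4 higher (14.8%), against 20.2% and 23.0% of all genes, and of 18 surface and regulator genes 10 were lower (55.6%) and 3 higher (16.7%, medians -0.69 and -1.69). *Hlf*, a leucine zipper factor of stem cells, had 12.2, 12.03 and 13.04 CPM in URE-AML and 383, 444 and 413 CPM in Hox-WT (log2 fold change -5.06, SE 0.11, edgeR adjusted p = 8.7e-10). *Hmga2*, a chromatin protein of fetal stem cells, had 0, 0 and 0 CPM in URE-AML and 63.9, 64.2 and 77.9 CPM in Hox-WT (at least 525-fold lower, edgeR adjusted p = 1.76e-08). *Igf2bp3*, an RNA-binding protein of fetal cells, had 0.0404, 0.143 and 0 CPM in URE-AML and 157, 174 and 166 CPM in Hox-WT (at least 1269-fold lower, edgeR adjusted p = 2.23e-08). For each of them every URE-AML library lay below every Hox-WT library. *Meis1*, a cofactor of Hox proteins, was at least 80.3-fold lower, *Mycn* at least 31.4-fold lower, and *Sox4* fell from 126 to 8.91 CPM. *Myb* (-0.76), *Lmo2* (-1.59) and *Tal1* (-0.69), which act in progenitors, were lower by smaller amounts, and *Nfe2* (0.47), a factor of megakaryocytes and erythroid cells, was not called. Among surface genes, *Thy1* was at least 2276-fold lower, *Cd48* at least 637-fold lower and *Adgrl4*, an adhesion receptor of endothelium and stem cells, at least 1888-fold lower. *Adgrg1*, an adhesion receptor of stem cells, fell from 698 to 6.04 CPM. *Hlf*, *Meis1* and *Adgrg1* were at 169.5, 8.78 and 1602 CPM in Hox-URE, and each was lower in URE-AML than there (edgeR adjusted p = 3.65e-09, 1.45e-06 and 3.65e-09).

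Genes of B cells, megakaryocytes and mast cells were more often lower than higher, while erythroid and eosinophil genes were split. Of 10 tested B cell genes 8 were lower (80%) and 1 higher (10%), against 20.2% and 23.0% of all genes, and of 13 megakaryocyte and platelet genes 10 were lower (76.9%) and 3 higher (23.1%). *Rag2*, a subunit of the V(D)J recombinase, had 0, 0 and 0 CPM in URE-AML and 33.7, 51.1 and 49.5 CPM in Hox-WT (at least 342-fold lower, edgeR adjusted p = 2.73e-06). *Ebf1*, a factor of B cell commitment, had 0, 0.143 and 0.0429 CPM in URE-AML and 36.2, 44.6 and 46.8 CPM in Hox-WT (at least 325-fold lower, edgeR adjusted p = 8.56e-09). These genes were thus near 0 in every URE-AML library and readily counted in every Hox-WT library. *Igll1*, which encodes a surrogate light chain, was at least 1404-fold lower and *Dntt*, the terminal transferase, at least 126-fold lower. In the megakaryocyte list *Slc14a1*, a urea transporter, was at least 228-fold lower, *Itgb3*, the platelet integrin chain, fell from 102 to 30.5 CPM, and *Pf4*, a platelet chemokine, was at 0.236 against 2.35 CPM (log2 fold change -3.30, with -2.70 and -4.33 without library 1 or 3 of URE-AML). The members that were higher were *Thbs1*, which encodes thrombospondin 1 (1209 against 8.91 CPM), *Gng11*, a G protein subunit (at least 517-fold), and *Gp1bb* (at least 18.9-fold). Of 15 mast cell and basophil genes 6 were lower (40%) and 2 higher (13.3%). *Cpa3*, the mast cell carboxypeptidase, fell from 548 to 1.37 CPM (log2 fold change -8.63, or -9.28 without library 3 of URE-AML) and *Slc18a2*, which loads amines into vesicles, was at least 628-fold lower. Of 11 erythroid genes 4 were higher (36.4%) and 4 lower (36.4%). Among them *Car2*, the cytosolic carbonic anhydrase, had 0.404, 0.903 and 0.686 CPM in URE-AML and 1031, 1008 and 1061 CPM in Hox-WT (log2 fold change -10.61, SE 0.41, edgeR adjusted p = 1.68e-08), and the lines did not overlap. *Car4*, a membrane-anchored carbonic anhydrase outside the erythroid list, had 900.1, 1121 and 1567 CPM in URE-AML and 0, 0 and 0 CPM in Hox-WT (at least 11100-fold higher, edgeR adjusted p = 4.69e-08). Of 9 eosinophil genes 5 were higher (55.6%) and 3 lower (33.3%), with *Epx*, the eosinophil peroxidase, at 17.5 against 0.372 CPM and *Siglecf*, a sialic acid receptor, at 0.189 against 18.3 CPM. The log2 fold change of *Epx* was 5.51, and 7.03 without library 3 of Hox-WT and 4.70 without library 3 of URE-AML.

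**Figure D3:**
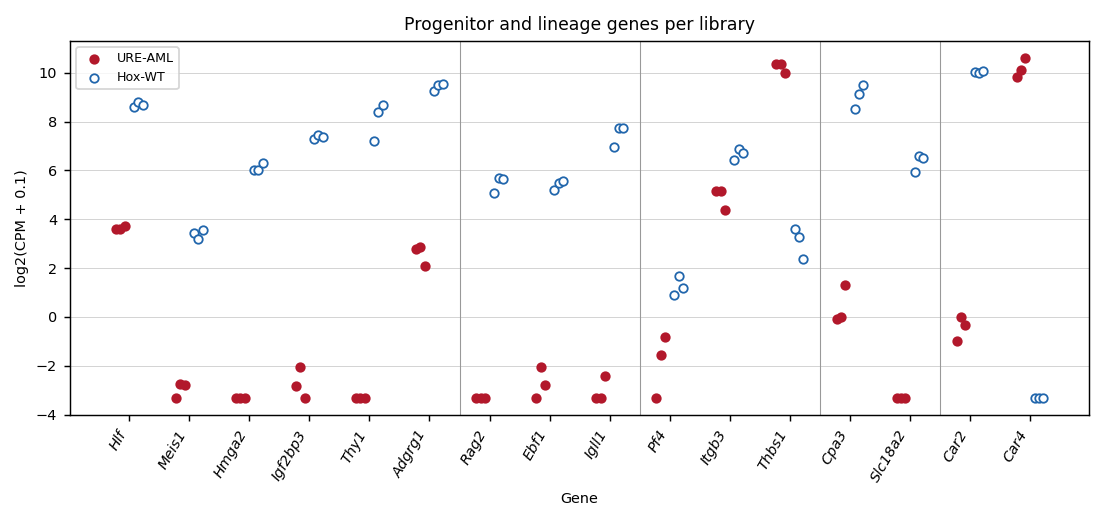
Level of progenitor, B cell, megakaryocyte and mast cell genes, of *Car2* from the erythroid list and of *Car4*, which is outside it, in every library, as log2 of CPM plus 0.1, so that 0 CPM lies at -3.32. Filled points are URE-AML, open points Hox-WT. Every open point lies above the filled points of the same gene except for *Thbs1* and *Car4*, for which the order is turned.

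Monocyte and macrophage genes did not move as one group. Of 20 tested, 9 were higher (45%) and 9 lower (45%), against 23.0% and 20.2% of all genes. *Adgre1*, which encodes the macrophage antigen F4/80, had 7.79, 1.76 and 1.63 CPM in URE-AML and 272, 269.8 and 279.6 CPM in Hox-WT (log2 fold change -6.17, SE 0.64, edgeR adjusted p = 1.73e-05). *Ly6c2*, an antigen of monocytes and granulocyte precursors with near-identical neighbors, had 645, 347 and 1020 CPM in URE-AML and 22.1, 53.8 and 71.8 CPM in Hox-WT (log2 fold change 3.77, SE 0.55, edgeR adjusted p = 0.000198). The libraries of the lines did not overlap for either gene, in opposite directions, and *Adgre1* had a log2 fold change of -7.33 without library 1 of URE-AML. *Vcan*, the proteoglycan versican, rose from 0.514 to 172 CPM. *Cd14*, the lipopolysaccharide co-receptor, was higher by 1.61 on the log2 scale. *Tgfbi* (-5.80) and *Cd68* (-2.65) were lower, and *Csf1r*, the M-CSF receptor, was at the floor in URE-AML and at 0.783 CPM in Hox-WT.

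Receptors and sensors of phagocytes changed in both directions as well. Of 28 Fc and paired receptors 14 were higher (50%) and 9 lower (32.1%), against 23.0% and 20.2% of all genes. *Sirpa*, the inhibitory receptor that binds CD47, was at 183 against 45.2 CPM, and *Pecam1*, an adhesion receptor with inhibitory motifs, at 748 against 164 CPM. *Lilrb4a*, an inhibitory receptor, and its relative *Lilr4b* were at 21.9 against 0.382 CPM and 38.5 against 0.602 CPM, and the log2 fold change of *Lilrb4a* was 5.82, or 7.20 without library 2 of Hox-WT. In contrast, *Cd33*, a sialic acid receptor, was at 8.11 against 332 CPM, *Fcgr2b*, the inhibitory Fc receptor, at 16.8 against 67.7 CPM, and *Cd300a* was at least 254-fold lower. *Tyrobp*, the adaptor DAP12 of activating receptors, fell from 23.6 to 0.512 CPM (log2 fold change -5.50, or -6.48 without library 3 of URE-AML), while the adaptor *Fcer1g* was at 123 against 135 CPM and not called. Of 40 lectins, Toll-like receptors and their adaptors 13 were higher (32.5%) and 15 lower (37.5%). The receptor of single-stranded RNA *Tlr7* (at least 282-fold), the inflammasome gene *Nlrp3* (at least 176-fold), *Clec5a* (4.83) and *Tlr2* (3.43) were higher. The flagellin receptor *Tlr5* (at least 50.95-fold), *Mgl2* (at least 196-fold), *Cd180* (at least 85.6-fold), *Tifab* (-3.47) and *Sting1* (-2.74) were lower. Of the 9 tested genes of the phagocyte oxidase 5 were higher (55.6%), among them *Ncf1* (1.90), *Cyba* (1.44) and the proton channel *Hvcn1* (3.56). *Cybb*, which encodes the catalytic chain gp91phox, was at 0.0579 against 0.798 CPM.

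The response side of cytokine signaling differed in receptors, ligands and feedback inhibitors. Of 46 cytokine receptor genes 18 were higher (39.1%) and 16 lower (34.8%), against 23.0% and 20.2% of all genes. *Tnfrsf1b*, a receptor of TNF, was at 739 against 85.7 CPM, *Ifngr1*, the interferon gamma receptor, at 366 against 43.6 CPM, and *Igf1r* at 189 against 32.3 CPM. *Ghr*, the growth hormone receptor, was at least 581-fold higher. Of 34 ligands 19 were higher (55.9%) and 12 lower (35.3%), with a median of 1.22. *Tgfb3* was at least 997-fold higher, *Ccl6* was at 130.2 against 0.960 CPM, *Il1rn*, the interleukin 1 receptor antagonist, at 67.3 against 1.16 CPM and *Csf1*, the ligand of the M-CSF receptor, at 41.3 against 5.48 CPM. *Hgf*, hepatocyte growth factor, was at least 1211-fold lower, and so was its receptor *Met* (at least 546-fold). The chemokine *Ccl9* fell from 909 to 10.7 CPM and *Angpt1*, a ligand of vascular and stem cell receptors, from 259.7 to 5.92 CPM. Of 31 JAK-STAT genes 12 were higher (38.7%) and 6 lower (19.4%), the latter about the share of all genes. *Socs3*, a feedback inhibitor of STAT3 signaling, had 184, 174 and 149 CPM in URE-AML and 12.2, 11.5 and 11.1 CPM in Hox-WT (log2 fold change 3.87, SE 0.19, edgeR adjusted p = 5.92e-08). *Cish* (2.63) and *Socs1* (2.73), inhibitors of the same family, were higher too, and no library of URE-AML overlapped with Hox-WT for *Socs3*. *Stat5a* (-1.98) and *Stat4* (-2.32) were lower, while *Jak1* (0.31) and *Stat5b* (-0.48) were not called.

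Among other signaling genes *Notch1* had 234, 220.1 and 195 CPM in URE-AML and 3.37, 2.93 and 2.90 CPM in Hox-WT (log2 fold change 6.14, SE 0.15, edgeR adjusted p = 1.26e-09). Its level in every URE-AML library was above that in every Hox-WT library. *Hes1*, a Notch target gene, was at least 69.9-fold higher, and the Wnt pathway factor *Lef1* at least 48.6-fold higher. The TGF-beta mediator *Smad3* (-3.59) and the BMP mediator *Smad1* (at least 58.1-fold) were lower. Of 44 genes of these pathways 18 were higher (40.9%) and 9 lower (20.5%), against 23.0% and 20.2% of all genes. In the RAS and MAP kinase list 9 of 42 were higher (21.4%), with *Mapk3*, which encodes ERK1, at 238 against 74.6 CPM and *Map2k1*, which encodes MEK1, at 118 against 56.5 CPM, and 6 were lower (14.3%). Of 37 PI3K and mTOR genes 7 were higher (18.9%) and 8 lower (21.6%), with *Deptor*, an inhibitor of mTOR, at 0.981 against 22.8 CPM, *Trib2* at 0.184 against 35.5 CPM (log2 fold change -7.53, or -8.54 without library 1 of URE-AML) and *Phlpp1*, a phosphatase of AKT, at least 93.5-fold higher. Both lists lay near or under the shares of all genes. *Hif1a*, the oxygen-regulated factor, was at 500 against 116 CPM (log2 fold change 2.11, SE 0.27, edgeR adjusted p = 7.27e-05).

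Most genes of adhesion and migration were called, in both directions. Of 34 integrins and adhesion genes 16 were higher (47.1%) and 14 lower (41.2%), and of 25 chemoattractant receptors 13 were higher (52%) and 7 lower (28%), against 23.0% and 20.2% of all genes. *Vcam1*, a ligand of the integrin VLA-4, had 188, 381 and 492 CPM in URE-AML and 0, 0.0357 and 0.0692 CPM in Hox-WT (at least 3283-fold higher, edgeR adjusted p = 3.66e-08). *Itga4*, a chain of VLA-4, went the other way, with 30.4, 45.8 and 40.9 CPM in URE-AML and 157, 190.3 and 169.7 CPM in Hox-WT (log2 fold change -2.14, SE 0.17, edgeR adjusted p = 2.33e-06). The lines did not overlap in either gene. *Itgb2*, the common chain of leukocyte integrins, rose from 30.2 to 220.1 CPM and *Itgb7* from 1.10 to 90.5 CPM, and *Itga5* (14.9 against 71.6 CPM) and *Itga9* (0.114 against 36.7 CPM) were lower. The log2 fold change of *Itga9*, near 0 in URE-AML, was -8.25, with -7.63 and -12.8 without library 1 or 3 of URE-AML. *Icam1*, a ligand of the beta 2 integrins, was at least 105-fold lower. Among receptors, *Ccr1* had 273, 251 and 265 CPM in URE-AML and 0.225, 0 and 0.173 CPM in Hox-WT (log2 fold change 10.91, SE 0.32, edgeR adjusted p = 2.77e-09). Without library 1 or 2 of Hox-WT its log2 fold change was 11.5 or 10.3. *Ltb4r1*, the leukotriene B4 receptor, was at 121 against 11.9 CPM, *Cxcr4*, which holds cells in the marrow, at 104 against 23.9 CPM, and *C5ar1*, the C5a receptor of neutrophils, was at least 366-fold higher. *S1pr3*, a receptor of sphingosine 1-phosphate, fell from 40.6 to 0.498 CPM.

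The cytoskeleton list lay not far from the shares of all genes but showed large changes of single genes, with 21 of 66 higher (31.8%) and 18 lower (27.3%), against 23.0% and 20.2% of all genes. *Coro1a*, an actin regulator of leukocytes, had 18.8, 22.7 and 36.8 CPM in URE-AML and 641, 594 and 681 CPM in Hox-WT (log2 fold change -4.61, SE 0.25, edgeR adjusted p = 1.46e-07). *Dock2*, an activator of Rac in migrating leukocytes, had 16.4, 9.60 and 14.2 CPM in URE-AML and 216, 248 and 247 CPM in Hox-WT (log2 fold change -4.14, SE 0.22, edgeR adjusted p = 1.33e-07). Both were far lower in each URE-AML library than in any of Hox-WT. *Gsn*, which encodes gelsolin, was at 2.10 against 103 CPM and *Arhgap15* at 2.01 against 69.03 CPM. *Rhou*, an atypical small GTPase, was at 161 against 2.63 CPM, *Marcks* at least 121-fold higher and its relative *Marcksl1* at 3.15 against 143 CPM. Several genes of cell junctions and actin bundles were at the floor in Hox-WT and counted in URE-AML. They were *Tjp1*, the tight junction scaffold ZO-1 (at least 1053-fold), *Cgnl1*, a junction protein (at least 784-fold), *Pls3*, an actin bundler (at least 965-fold), and *Svil*, which links actin to membranes (at least 556-fold). *Tmsb4x*, the actin monomer binder thymosin beta 4, rose from 369 to 1939 CPM, *Tgm2*, a transglutaminase, from 1.39 to 1336 CPM, and *Spp1*, which encodes osteopontin, from 1.65 to 947 CPM. *Spp1* varied the most among the URE-AML libraries of these genes, at 1875, 619 and 346 CPM, and its log2 fold change was 8.19 without library 1 of URE-AML. *Tgm2* was also at 1004 CPM in Hox-URE (URE-AML against it, log2 fold change 0.41, edgeR adjusted p = 0.362), whereas *Tjp1* was at 0.164 CPM there.

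Most genes of replication and mitosis were not called. Of 51 tested genes of DNA replication 15 were lower (29.4%, against 20.2% of all genes) and 1 higher (median -0.33). Of 60 genes of mitosis 16 were higher (26.7%, close to the 23.0% of all genes) and 2 lower (median 0.30). *Mcm6*, a subunit of the replicative helicase, had 461, 468 and 496 CPM in URE-AML and 901, 811 and 869.6 CPM in Hox-WT (log2 fold change -0.86, SE 0.09, edgeR adjusted p = 1.8e-05). *Mki67*, the proliferation marker Ki-67, had 464, 463 and 603 CPM in URE-AML and 236, 264 and 322 CPM in Hox-WT (log2 fold change 0.90, SE 0.24, edgeR adjusted p = 0.00823). The libraries of the lines did not overlap in these 2 genes, and the changes were under 2-fold. *Pcna* (-0.76), the clamp of DNA polymerases, *Chaf1b* (-1.46), a histone chaperone, and *Mcm2* (-0.71) were lower, although *Pcna* was no longer called once the counts of its processed copy were added (-0.53). *Pttg1*, which encodes securin, was higher by 1.86 on the log2 scale, *Ube2c*, the ubiquitin carrier of the anaphase-promoting complex, by 0.95 and *Top2a*, which untangles DNA, by 0.85, and the other 42 mitosis genes were not called. With no fold threshold 29 replication genes were lower and 28 mitosis genes higher, and in a test against a fold of 1.5 only 5 and 3. Among regulators of G1, *Ccnd3*, which encodes cyclin D3, rose from 205 to 639 CPM, *Ccne1* (1.49), which encodes cyclin E1, and *E2f2* (2.38) were higher, and *Ccnd1* (0.0840 against 6.61 CPM, log2 fold change -6.18, or -7.04 without library 1 of URE-AML) and *Cdk4* (-0.90) were lower. *Cdkn2a*, the locus of the inhibitors INK4A and ARF, was at 0.538 against 10.8 CPM. *Cdkn1a*, which encodes the inhibitor p21 (0.83), and *Mdm2* (0.81) were higher, and of 43 p53 target genes 14 were higher (32.6%) and 6 lower (14%). *Pmaip1*, which encodes the death protein NOXA, was at least 119-fold lower. *Parp1*, which acts at DNA breaks, fell from 318 to 129.9 CPM, while *Mcl1* (0.57), *Bax* (-0.14) and *Bak1* (-0.22) were not called. *Fas*, a death receptor, was at 11.8 against 0.725 CPM.

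**Figure D4:**
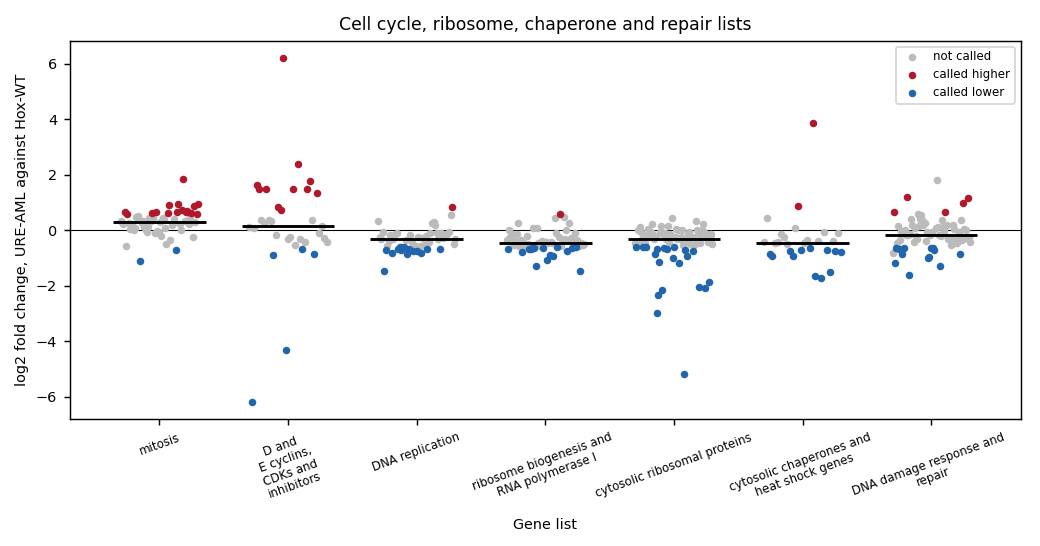
Log2 ratio of URE-AML to Hox-WT for each tested member of 7 lists (1 point per gene, red called higher, blue called lower, grey not called, black bars at the list median). The medians of replication, ribosome biogenesis, ribosomal protein and chaperone genes lie below 0, that of mitosis genes above.

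Ribosomal protein and ribosome biogenesis genes were lower at shares near that of all genes, with almost none higher. Chaperone and heat shock genes were lower more often. Of 81 cytosolic ribosomal protein genes 21 were lower (25.9%, against 20.2% of all genes) and 0 higher (median -0.30), and of 62 genes of ribosome biogenesis 16 were lower (25.8%) and 1 higher. Of 28 genes of cytosolic chaperones and heat shock 12 were lower (42.9%) and 2 higher. The counts depend on the fold threshold: with none, 39, 40 and 20 genes of these lists were lower, and in a test against a fold of 1.5, 11, 6 and 8. Of the ribosome biogenesis genes 9 were lower without library 2 of URE-AML and 10 without library 1 of Hox-WT. *Npm1*, a nucleolar protein often mutated in human acute myeloid leukemia, had 1216, 954 and 1067 CPM in URE-AML and 2401, 2046 and 2398 CPM in Hox-WT (log2 fold change -1.08, SE 0.12, edgeR adjusted p = 2.71e-05). *Hspd1*, the mitochondrial chaperonin HSP60, fell from 1340 to 817 CPM and *Hspe1*, its partner, from 324 to 115 CPM. *Wdr12* (-1.48), which acts in ribosome assembly, was lower, and *Fbl*, which methylates ribosomal RNA, had -0.57 and lay near the fold threshold. *Rpl3*, a protein of the large ribosomal subunit, had 473, 433 and 426 CPM in URE-AML and 1941, 2326 and 2403 CPM in Hox-WT (log2 fold change -2.33, SE 0.11, edgeR adjusted p = 4.65e-08).

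Some genes of these lists have processed copies, some of which were higher where the parent was lower. A processed copy is a gene, usually without introns, that arose from the messenger RNA of a parent gene, and salmon has to divide reads between both from the bases at which they differ. A search of the transcript models found 383 tested genes with 1 exon or annotated as pseudogenes or retrogenes that shared at least 50% of their 31-base words with 1 of 233 parent genes, and 112 of them were called higher and 24 lower. Copies at over 20 CPM in URE-AML and under 5 CPM in Hox-WT numbered 40. Of 98 copies whose parent was called lower, 40 were higher, 16 lower and 42 not called. *Rpl3-ps1*, which shared 94.7% of such words with *Rpl3*, had 1518, 1483 and 1521 CPM in URE-AML and 0.187, 0 and 0 in Hox-WT. *Rps13-ps1* had 909, 859 and 845 CPM in URE-AML and 1.20, 1.07 and 1.94 in Hox-WT, while its parent *Rps13* had 30.96, 20.5 and 23.4 CPM in URE-AML and 924, 882 and 909 CPM in Hox-WT. *Gm4737*, a copy of *Ahcy*, had 303, 280.5 and 302 CPM in URE-AML and 0, 0 and 0 in Hox-WT, while *Ahcy*, which cleaves S-adenosylhomocysteine, had 9.12, 7.13 and 6.99 CPM in URE-AML and 461, 491 and 579 CPM in Hox-WT. In each pair of this comparison the copy was high in URE-AML and near 0 in Hox-WT, and the parent was far lower in URE-AML. *Rpl3-ps1* was also at 2252 CPM in Hox-URE, while *Rps13-ps1* was at 2.02 CPM and *Gm4737* at 0 CPM there.

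With the counts of copies added to their parents, some of these differences shrank. Of 63 parents called lower alone, 25 were no longer called. *Rpl3* with its copies was at 1953 against 2224 CPM (log2 fold change -0.19, SE 0.10, edgeR adjusted p = 0.147), *Rps13* at 896 against 907 CPM (-0.02) and *Rps3a1* at 2034 against 2005 CPM (0.02). *Hspa8*, the constitutive HSC70 chaperone, went from -1.71 alone to -0.54 on the log2 scale and was no longer called, and *Ahcy* from -6.04 to -0.75. *Eno1*, the glycolytic enolase, was called lower alone (1466 against 3017 CPM) and higher with its copies *Eno1b* and *Gm4735* (5212 against 3021 CPM, log2 fold change 0.79, SE 0.12, edgeR adjusted p = 0.000304). *Npm1* stayed at -1.08. The number of ribosomal protein genes called lower fell from 21 to 11, a smaller share than that of all genes, while counts for biogenesis and chaperone genes were 16 and 11. Values of parent genes and of copies taken alone are therefore uncertain. The study gives a strain background for its mice without the URE but does not name one separately for each line. Whether the sequences of the lines differ from the reference transcripts cannot be seen in a count table and was not tested. Such differences would change how reads are divided.

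**Figure D5:**
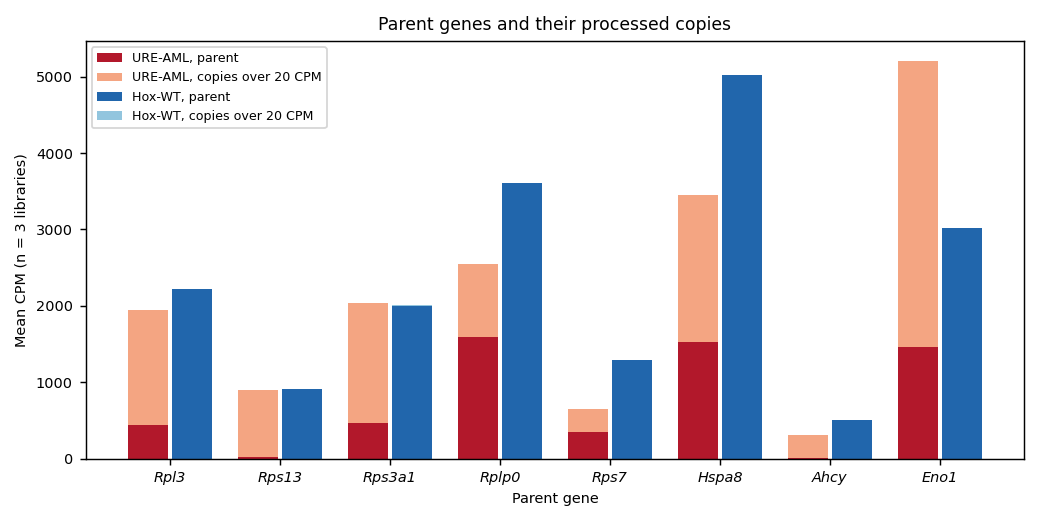
Mean CPM (n = 3 libraries) of 8 parent genes (dark) and, stacked on them, of their processed copies with over 20 CPM (light) in URE-AML (red) and Hox-WT (blue). In Hox-WT nearly all counts are on the parent, in URE-AML the copies hold counts in each of the 8 pairs.

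Central carbon metabolism held changes of abundant enzymes. Of 30 glycolysis genes 10 were higher (33.3%) and 7 lower (23.3%), against 23.0% and 20.2% of all genes. *Gpi1*, glucose phosphate isomerase, had 2587, 3600 and 3886 CPM in URE-AML and 1171, 1208 and 1249 CPM in Hox-WT (log2 fold change 1.47, SE 0.16, edgeR adjusted p = 2.13e-05). *Pkm*, pyruvate kinase, rose from 1510 to 3344 CPM, and the 3 phosphofructokinase genes *Pfkl*, *Pfkm* and *Pfkp* had log2 fold changes of 0.79, 0.77 and 0.68. *Gpi1* did not overlap between the lines. *Slc2a3*, the glucose transporter GLUT3, fell from 42.1 to 0.312 CPM and *Hk3*, a myeloid hexokinase, from 299 to 84.1 CPM, while *Gapdh* (0.04), *Aldoa* (0.19) and *Ldha* (0.51) were not called. In the pentose phosphate pathway *G6pdx*, the first enzyme, was at 383 against 134 CPM, *Taldo1* at 468 against 234 CPM and *Rpia* at 269 against 125 CPM. *Impdh1* of guanine nucleotide synthesis fell from 325 to 15.4 CPM, and *Paics* (-1.04) and *Cad* (-0.73) of purine and pyrimidine synthesis were lower. In the citric acid cycle list 5 of 34 were higher (14.7%) and 5 lower (14.7%, or 3 genes without library 1 of URE-AML), among these *Idh2*, which is mutated in some human leukemias, at 60.4 against 289 CPM. Few genes of oxidative phosphorylation were called, with 7 of 75 nuclear genes higher (9.33%) and 3 lower (4%), and of 15 mitochondrial transcripts 0 were higher and 1 lower.

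Shares of lipid genes called lay near those of all genes (23.0% higher, 20.2% lower), with large changes of single genes. Of 44 fatty acid genes 13 were higher (29.5%) and 10 lower (22.7%), and of 34 cholesterol genes 7 were higher (20.6%) and 9 lower (26.5%). *Pparg*, a nuclear receptor of lipid storage, had 77.6, 50.2 and 53.9 CPM in URE-AML and 0.0375, 0 and 0 CPM in Hox-WT (at least 562-fold higher, edgeR adjusted p = 1.23e-07). *Dgat1* and *Dgat2*, which make triglycerides, rose from 39.7 to 226 and from 24.97 to 163 CPM, and *Plin2*, a coat protein of lipid droplets, from 80.1 to 271 CPM. The desaturase *Scd1* fell from 41.01 to 0.0911 CPM (log2 fold change -8.80, or -9.78 without library 2 of URE-AML) and the elongase *Elovl6* was at least 498-fold lower, while *Fasn*, fatty acid synthase, was at 1040 against 1057 CPM and not called. *Nr1h3*, the oxysterol receptor LXR alpha, was at 37.6 against 0.577 CPM.

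Redox genes were more often higher than lower. Of 47 redox genes 19 were higher (40.4%) and 9 lower (19.1%), and of 32 genes of heme and iron 11 (34.4%) and 7 (21.9%). The lower shares of both lists were about that of all genes (20.2%). *Gstm1*, a glutathione transferase, had 718, 1082 and 1849 CPM in URE-AML and 85.2, 116 and 139.6 CPM in Hox-WT (log2 fold change 3.42, SE 0.40, edgeR adjusted p = 4.71e-05). *Mgst1* and *Mgst2*, microsomal members of that enzyme group, rose from 1.08 to 312 and from 8.80 to 504 CPM, and *Nqo1*, a quinone reductase, from 0.420 to 22.5 CPM. *Gstm1* was higher in each URE-AML library than in any of Hox-WT. *Gpx1*, glutathione peroxidase, fell from 1091 to 399.9 CPM, and *Sod1* (-1.19) and *Prdx2* (-1.42) were lower. *Slc40a1*, the iron exporter ferroportin, had 50.6, 101 and 98.7 CPM in URE-AML and 0, 0.286 and 0.104 CPM in Hox-WT (log2 fold change 9.26, SE 0.60, edgeR adjusted p = 5.69e-07), and *Trf*, which encodes transferrin, was at 209 against 22.1 CPM (log2 fold change 3.24, or 3.90 without library 3 of Hox-WT). *Slc40a1* had a log2 fold change of 10.5 without library 2 of Hox-WT. *Ncoa4*, which delivers ferritin for breakdown, was lower (-1.09, or -0.66 and still called with the counts of processed copies added). Of 39 genes of serine synthesis and the ATF4 response 8 were higher (20.5%, or 5 genes without library 3 of Hox-WT) and 8 lower (20.5%), with *Psat1*, a serine synthesis enzyme, at 222 against 961 CPM and *Asns*, asparagine synthetase, at 44.02 against 155 CPM. Against Hox-URE, 30 of these genes were lower in URE-AML and 0 higher, where 22.4% and 20.3% of all genes were called.

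Lysosome genes held 23 higher (32.9%) and 15 lower (21.4%) of 70, against 23.0% and 20.2% of all genes. *Psap*, which encodes prosaposin, rose from 103 to 367 CPM, and *Ctse* from 0.110 to 71.8 CPM. *Gm2a*, the activator of ganglioside breakdown, had 0.202, 0.0951 and 0.257 CPM in URE-AML and 62.1, 178 and 222 CPM in Hox-WT (log2 fold change -9.64, SE 0.94, edgeR adjusted p = 1.18e-05). The lines did not overlap in *Gm2a*. Of 55 autophagy genes 9 were higher (16.4%), with *Atg9a* (2.15) and *Atg7* (1.39) among them, and 5 were lower (9.09%), which is under the share of all genes. Of 22 genes of drug efflux and drug metabolism 12 were lower (54.5%) and 5 higher (22.7%). *Abcb1a* and *Abcb1b*, which encode the P-glycoprotein drug pumps, were at least 100.5-fold lower and at 1.10 against 28.9 CPM. *Slc29a1*, a nucleoside transporter that takes up cytarabine, and *Samhd1*, which cleaves deoxynucleotide triphosphates, were lower (-1.24 and -1.22), and *Aldh2*, an aldehyde dehydrogenase, was at 499 against 71.4 CPM. Of 23 genes of MHC class I presentation 9 were lower (39.1%) and 2 higher (8.70%), with *H2-K1* at 197 against 473 CPM and *Tap1*, a peptide transporter, at 84.95 against 156 CPM. Among 49 interferon-stimulated genes 16 were higher (32.7%) and 10 lower (20.4%), the latter about that of all genes.

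Among genes of chromatin and DNA methylation, *Dnmt3a* and *Dnmt3b*, the enzymes of new DNA methylation, had log2 fold changes of -1.16 and -2.72. *Tet1*, which oxidizes methylcytosine, was at least 22.7-fold lower, and *Tet2*, its relative often mutated in myeloid malignancy, was higher (6.91 against 2.86 CPM). *Kdm5b*, a histone H3K4 demethylase, had 0.888, 1.47 and 1.63 CPM in URE-AML and 76.1, 89.2 and 80.4 CPM in Hox-WT (log2 fold change -5.95, SE 0.19, edgeR adjusted p = 4.34e-09). It did not overlap between the lines. *Cbx2* (-2.46), *Bmi1* (-0.91) and *Rnf2* (-0.96) of Polycomb complex PRC1 were lower, whereas *Ezh2* (-0.49), *Suz12* (-0.13) and *Eed* (-0.33) of PRC2 were not called. *Kmt2a*, the gene rearranged in some human leukemias, was lower (-0.89), and the deacetylase *Hdac4* higher (2.03). Of 85 chromatin genes 9 were higher (10.6%) and 14 lower (16.5%), below the shares of all genes. *Myc* was lower (-0.83), and its partner *Max* was not called (-0.46).

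Stress and inflammation lists are read against the 23.0% higher and 20.2% lower of all genes. Of 25 hypoxia-inducible genes 11 were higher (44.0%) and 5 lower (20.0%). *Ddit4*, an inhibitor of mTOR, was at 43.4 against 14.8 CPM, *Epas1*, which encodes HIF-2 alpha, was at least 44.3-fold higher, and *Car9*, a carbonic anhydrase and HIF target, was at least 60.01-fold lower. In the NF-kB list 9 of 33 were higher (27.3%) and 10 lower (30.3%), not far from all genes, and 6 were lower without library 3 of URE-AML or library 1 of Hox-WT. *Ikbke*, a kinase of the pathway, had 89.05, 94.2 and 109.5 CPM in URE-AML and 8.96, 14.03 and 11.4 CPM in Hox-WT (log2 fold change 3.09, SE 0.18, edgeR adjusted p = 2.93e-07). It did not overlap between the lines. *Tnfaip2* rose from 34.2 to 182 CPM and the inhibitor *Nfkbia* from 14.5 to 56.7 CPM, whereas the subunit *Rel* (-2.96) was lower, and *Nfkb1* (0.19) and *Rela* (0.20) were not called. Of 26 immediate early genes 10 were higher (38.5%) and 3 lower (11.5%, or 5 genes without library 1 or 3 of Hox-URE), with the kinase *Sgk1* at 38.9 against 0.704 CPM (log2 fold change 5.76, or 6.85 without library 3 of Hox-WT). Of 37 genes of the endoplasmic reticulum stress response 7 were higher (18.9%) and 4 lower (10.8%), below the shares of all genes. *Xbp1*, the factor spliced in that response, rose from 259 to 1036 CPM, while the chaperones *Hspa5* (-0.24) and *Calr* (-0.50) were not called. Of 71 DNA repair genes 13 were lower (18.3%) and 5 higher (7.04%), also below them, and the mismatch repair gene *Msh6* (-0.64) was among those lower.

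Several genes, most outside these lists, were counted in 1 line of the pair alone. *St6galnac2*, a sialyltransferase, had 149.8, 196 and 213 CPM in URE-AML and 0, 0 and 0 CPM in Hox-WT (at least 1729-fold higher, edgeR adjusted p = 2.92e-08). *Orm1*, which encodes an acute phase glycoprotein, was at least 879-fold higher, *Ptprk*, a receptor phosphatase of cell contacts, at least 763-fold higher, *Elavl2*, an RNA-binding protein known from neurons, at least 885-fold higher, and *Col5a1*, a collagen chain, at least 715-fold higher. None of these had a count in Hox-WT. In the other direction *Ppp1r14c*, an inhibitor of protein phosphatase 1, was at least 1548-fold lower, *Adcyap1r1*, the receptor of the neuropeptide PACAP, at least 609-fold lower, *Hs6st2*, which sulfates heparan sulfate, at least 593-fold lower, and *Slc25a13*, a mitochondrial carrier of aspartate and glutamate, at least 529-fold lower. *Olfm4*, a glycoprotein of a subset of neutrophils, had 428, 960.2 and 1667 CPM in URE-AML and 0.562, 0.821 and 1.52 CPM in Hox-WT (log2 fold change 10.02, SE 0.67, edgeR adjusted p = 4.63e-06), so the lowest URE-AML library was far above Hox-WT. *Itm2b*, a membrane protein expressed in most tissues, rose from 432 to 2122 CPM, and *Actg1*, which encodes gamma actin, fell from 3733 to 1581 CPM.

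Called genes were spread over all chromosomes. The median log2 fold change lay between -0.09 (chromosome 19) and 0.18 (chromosome 5). On chromosome 5, 29.2% of 828 tested genes were higher and 14.5% lower, and on chromosome 19, 19.5% of 466 were higher and 25.1% lower. The other chromosomes had medians from -0.06 to 0.07. Genes of a chromosome are not independent, and no test was made. *Spp1* lies on chromosome 5, and its log2 fold change of 9.16 is far larger than that shift.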

How the data were processed

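RNA was sequenced from stranded poly-A libraries of 3 lines. Per the labels and the methods of the study, the authors quantified transcripts with Salmon on GRCm38 and summed them per gene, and the deposited table holds counts. The Salmon version, the annotation release and any scaling by length are not given in the sources used here. Groups came from the labels. Counts were fitted over all 9 libraries (filterByExpr with a minimum count of 10, TMM scaling, edgeR 4.0.16 quasi-likelihood test in R 4.3.3, common biological coefficient of variation 0.173), with the contrast URE-AML minus Hox-WT and Benjamini-Hochberg adjustment over 13082 genes. Calls needed an adjusted p below 0.05 together with a fold over 1.5. The SE of a log2 fold change is its size divided by the square root of F. Totals of 20331064 to 28588718 counts set the precision, and bounds use a floor of 3 counts per library, which covers counting error only. GENCODE M21 gave biotypes and positions for 54094 of 54347 IDs. In data simulated for this contrast (12751 genes), 66 of 102 genes changed 2-fold and 83 of 98 changed 4-fold were called, 0 in the wrong direction, and 5 unchanged genes were called. Only 200 genes were changed in that simulation, while 43.2% of tested genes were called in the data. It therefore does not test the scaling, or the rate of false calls, under so many changes.

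Genes were named if they belonged to a list, if they were among the 15 protein-coding genes per direction with the largest fold and at least 50 CPM in the higher line or the largest difference in mean CPM, or if they were *Spi1* or *Hoxb8*. Lists and comparison were chosen with earlier results of these data known. Of the genes this allows, those shown were picked for their roles and after their values were seen, and so were the processed copies, which were found as genes with 1 exon, pseudogenes or retrogenes that share at least 50% of their 31-base words with a parent (exact matches). Alternatives were other scalings, filters, thresholds and tools (DESeq2 1.42.0), a replicate block, single libraries left out, and, chosen after seeing the data, copies added to parents. Some members of the lists are not reported here.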

Additional observations from a re-analysis of the deposited data

How the results depend on the processing

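The count of genes called, 3011 higher and 2637 lower, was 1891 and 1711 (3602 in all) when every library had to hold at least 10 counts, a filter that removes genes near 0 in one line. By the same construction 9 regulators and 3 surface genes of stem and progenitor cells, 2 megakaryocyte and 0 B cell genes were then lower, and 6 secondary granule genes higher. Other scalings, left-out libraries and a fit of the 6 libraries alone gave 2890 to 3140 higher and 2559 to 2805 lower genes. No filter on low counts gave 3496 and 2925, protein-coding genes alone 2658 and 2360, no fold threshold 3908 and 3641, the test against a fold of 1.5 2326 and 1961, and copies added to parents 2907 and 2584. DESeq2 gave 3025 and 2629, and 5577 of the 5648 genes kept their call and direction. Deviations of same-numbered libraries of the 2 lines correlated at 0.01 to 0.0844 and those of the other pairs at -0.0672 to 0.0102. With 3 libraries per line this neither shows nor excludes a pairing. With the replicate block 3029 genes were higher and 2650 lower, and 0 of the 295 named genes with alternatives lost a call. Under some other alternative 17 of them did: 12 in the test against a fold of 1.5 (*Cad*, *Ctsg*, *Hspd1*, *Mcm2*, *Mki67*, *Ms4a3*, *Msh6*, *Myb*, *Nkg7*, *Pfkm*, *Pfkp* and *Tal1*), 4 without 1 library (*Ctsg*, *Ltf*, *Ms4a3* and *Nkg7*) and 4 with copies added to parents (*Hspa8*, *Pcna*, *Rpl3* and *Rps13*).

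With no fold threshold 29 replication, 39 ribosomal protein, 40 ribosome biogenesis and 20 chaperone genes were lower and 28 mitosis genes higher. In the test against a fold of 1.5 these counts were 5, 11 and 6 for replication, ribosomal protein and biogenesis genes, and 3 for mitosis. Leaving out 1 library gave 9 to 24 lower ribosome biogenesis genes. With copies added to their parents 11 ribosomal protein genes were lower, *Eno1* turned to 0.79 and *Rps3a1* to 0.0208 on the log2 scale. The fold of 45 named genes moved by over 1.5 times without 1 library while their call or lack of one stayed. Genes not called could change sign when 1 library was left out: *Fasn* had -0.125 to 0.0539, *Gapdh* -0.0131 to 0.0891, *Fcnb* -0.21 to 1.18 and *Mmp8* -0.19 to 1.01. The cause was not tested. Low totals limit genes near the floor, for which only bounds are given.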

Other observations

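Of 35 enzymes of glycan synthesis 11 were higher and 11 lower, 31.4% each against 23.0% and 20.2% of all genes. *Man1a*, a mannosidase that trims N-glycans, was at 71.8 against 7.30 CPM, *B3gnt2*, which extends lactosamine chains, at 318 against 57.4 CPM, and *St3gal2*, a sialyltransferase, at 42.4 against 5.93 CPM. *Fut8*, which adds core fucose, fell from 301 to 93.8 CPM, *Gcnt2* from 47.6 to 3.65 CPM, and *St3gal5*, which makes the ganglioside GM3, was at least 129-fold lower. Among tumour suppressors 11 of 37 were higher and 7 lower, near the shares of all genes. *Fat1*, an atypical cadherin, was at least 90-fold higher, *Dok2*, an adaptor that dampens kinase signaling, was at 80.6 against 10.9 CPM and *Rassf4* at 3.21 against 60.4 CPM. *Fat1* and *Dok2* were also at 9.36 and 59.4 CPM in Hox-URE (log2 fold changes of URE-AML against it 0.05 and 0.44, edgeR adjusted p = 0.866 and 0.0107). *Peg10*, an imprinted gene of retroviral origin, had 13.1, 9.70 and 9.48 CPM in URE-AML and 0, 0 and 0 CPM in Hox-WT (at least 99.9-fold higher, edgeR adjusted p = 1.1e-05) and was at 0 CPM in Hox-URE.

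The 3 URE-AML libraries differed among themselves in single genes, picked here after their values were seen. Library 1 had the lowest *Ngp* (630 CPM, against 1532 and 4040), *Elane* (4288, against 7124 and 10510) and *Olfm4* levels, and the highest *Spp1* (1875, against 619 and 346) and *Vcan* (241, against 161 and 115) levels. What lies behind this spread was not tested.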
